A study of Mus musculus with 41 samples.

Results

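The genes described are 10 components of the pericellular matrix of fetal mouse lung: the large proteoglycan versican (Vcan), the small leucine-rich proteoglycans decorin (Dcn), lumican (Lum), biglycan (Bgn), osteoglycin (Ogn) and fibromodulin (Fmod), the hyaluronan synthases Has1, Has2 and Has3, and the hyaluronan receptor Cd44. They were taken by symbol from 24371 genes, and all 10 were present in each of the 4 deposited count tables. The tables cover 11 bulk libraries and 26 single cells from a study of the response of lung mesenchyme to dexamethasone, a synthetic glucocorticoid.

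The bulk libraries fell into 5 groups. For the first pair, Twist2Cre;Rosa26mT/mG fetuses were harvested 2 hours after their dams were injected at E18.5 with 1 mg/kg dexamethasone (4 pools) or saline (2 pools). Lungs were pooled by genotype and GFP+, tdTomato-negative cells were sorted, so all 6 pools carry the same Cre and reporter alleles and hold cells descended from those in which the Twist2 promoter drove Cre. The second table set CD106+ cells (2 libraries) against CD106- cells (2 libraries) of E18.5 lung, with no treatment given in the labels. CD106 is the surface protein encoded by Vcam1. Another table held 1 library of CD106+ cells from E18.5 lung after 1 mg/kg dexamethasone, and the labels do not give its time after injection. The last table held single cells captured on the C1 microfluidic system from wild-type C57Bl6/J fetuses, 24 hours after injection of the dams at E17.5 with 2 mg/kg dexamethasone (15 cells) or saline (11 cells). Separate litters are not stated for the pools or fractions. The p-values therefore reflect differences among these libraries, some of which may be technical.

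Versican carries chondroitin sulphate chains and binds hyaluronan, a long sugar polymer that the synthases spin out at the cell surface, and link proteins stabilise the complex. Small leucine-rich proteoglycans bind collagen and steer the thickness and spacing of its fibrils, and decorin and biglycan also bind TGF-beta. CD44 holds hyaluronan at the cell surface. Versican and hyaluronan make a loose, hydrated matrix in developing organs, which ADAMTS proteases can cut.

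Bulk libraries held 1670896 to 7133941 counts each, and dexamethasone C1 cells held 215623 to 1781606 counts, against 879285 to 1787997 in saline C1 cells. Values are counts scaled to a common column total (CPM), and because transcript lengths were not used, no level is compared between genes. The sort labels were checked on marker genes. Summed CPM of 9 mesenchyme markers ran from 16765 to 19885 in dexamethasone pools and from 14799 to 19925 in saline pools, while Twist2 itself stood at 0 to 0.90 CPM in these 6 pools. Vcam1 stood at 551 and 687 CPM in CD106+ libraries, against 1.35 and 3.00 CPM in CD106- libraries. Epithelial markers summed to 2336 and 4018 CPM in CD106+ libraries and to 4910 and 5506 CPM in CD106- libraries, so both fractions hold epithelial RNA. In all these bulk values, fewer cells of a type and less RNA per cell cannot be told apart.

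Promoter sequence was found for 6 of the 10 genes in a RefSeq table of build GRCm38.p6, and the stretches of 250 bases upstream of the start are shown for 4 of them. Vcan, Bgn and Ogn are 3 genes that were higher in CD106+ cells, and Fmod is a small proteoglycan that was not. Each runs 5′ to 3′ on the gene's own strand, at chr13:89742513-89742762 (minus strand) for Vcan, chrX:73483351-73483600 (plus) for Bgn, chr13:49607765-49608014 (plus) for Ogn and chr1:134037004-134037253 (plus) for Fmod. The Vcan gene extends to position 89743027, so its stretch lies inside the gene's span, upstream of an inner start. The Has1 stretch, searched but not shown, lies inside its gene's span as well. For Bgn, Ogn and Fmod the stretch ends where the gene's span begins. Capitals mark matches, on either strand, to any of 6 motifs searched, which are spelled out after the sequences.
Vcan: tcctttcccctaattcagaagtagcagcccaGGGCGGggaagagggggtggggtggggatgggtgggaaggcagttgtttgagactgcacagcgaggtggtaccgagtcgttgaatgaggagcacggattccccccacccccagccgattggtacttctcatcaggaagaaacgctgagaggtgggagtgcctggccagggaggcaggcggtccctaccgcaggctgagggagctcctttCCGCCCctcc
Bgn: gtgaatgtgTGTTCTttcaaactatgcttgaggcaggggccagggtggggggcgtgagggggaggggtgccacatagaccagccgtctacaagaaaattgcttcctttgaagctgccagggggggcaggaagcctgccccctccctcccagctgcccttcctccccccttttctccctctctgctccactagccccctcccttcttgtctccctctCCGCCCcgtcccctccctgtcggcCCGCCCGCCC
Ogn: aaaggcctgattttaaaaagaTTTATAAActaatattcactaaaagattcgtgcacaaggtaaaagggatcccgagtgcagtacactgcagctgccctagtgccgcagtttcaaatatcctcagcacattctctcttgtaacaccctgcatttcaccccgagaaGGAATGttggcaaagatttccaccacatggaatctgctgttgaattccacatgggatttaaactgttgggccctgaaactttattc
Fmod: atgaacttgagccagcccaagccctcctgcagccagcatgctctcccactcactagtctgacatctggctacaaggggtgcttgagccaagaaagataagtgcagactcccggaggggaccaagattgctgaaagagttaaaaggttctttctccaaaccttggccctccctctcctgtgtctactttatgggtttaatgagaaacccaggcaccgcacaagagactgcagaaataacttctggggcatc

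The GC box, GGGCGG, was matched at 2 places in the Vcan stretch and at 3 in the Bgn stretch, where the last 2 overlap. It is held by 32.9% of 27025 promoters of the same length. Bgn also held AGAACA, a single arm of the glucocorticoid response element, at -241 to -236 from the start, as 16.2% of promoters do. Ogn had the TATA motif, TATAAA, on both strands, overlapping at -229 to -222, and 13.0% of promoters hold it. The TEAD motif CATTCC lay at -86 to -81 in Ogn and is found in 12.6% of promoters. The palindromic glucocorticoid element, an AGAACA arm and its reverse complement set 3 bases apart, matched 0.0037% of promoters and none of these 6. The AP-1 motif TGANTCA, in 6.87% of promoters, matched none of them either. No match to any motif was found in the Fmod, Has1 or Cd44 stretch. GC content was 62.4% for Vcan and 64.4% for Bgn, against 42.0% for Ogn and 51.2% for Fmod. A match is a string of letters and not a measured binding site, and Dcn, Lum, Has2 and Has3 had no sequence to search.

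In CD106+ cells, 7 of the 10 genes were higher than in CD106- cells and none was lower past the test. The 7 were Vcan, 4 of the 5 small leucine-rich proteoglycans (Dcn, Lum, Bgn and Ogn), Has2 and Cd44. Differences ran from 2.55-fold for Cd44 to 13.7-fold for Ogn. In this comparison edgeR called 10.0% of 12364 genes at an adjusted p under 0.05, with 6.67% higher and 3.35% lower. At an unadjusted p under 0.05 there were 8 of the 10 genes, against 19.8% of all genes. The median log2 fold change was 1.55 over the 10 genes and 0.046 over all genes tested. All 8 tested mesenchyme markers were also higher in CD106+ cells, with a median log2 fold change of 2.78 and summed levels of 5853 and 10990 CPM, against 751 and 1098 CPM in CD106- cells; their part in the results on the 10 genes was not tested.

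Vcan stood at 2277 and 2375 CPM in CD106+ libraries, against 653 and 892 CPM in CD106- libraries. Both CD106+ libraries lay above both CD106- libraries, as for 25.7% of genes, and the log2 fold change was 1.54 (SE 0.35, edgeR adjusted p = 0.0038, n = 2 and 2). Without the first CD106- library the adjusted p was 0.43, and without the second it was 0.13, so the call rests on having both.

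Ogn, a small proteoglycan also called mimecan, showed the widest gap among the 10 genes. It stood at 198 and 232 CPM in CD106+ libraries, against 15.6 and 14.8 CPM in CD106- libraries. The groups were far apart and the replicates close, with a log2 fold change of 3.77 (SE 0.30, edgeR adjusted p = 2.3e-09).

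Bgn, the X-linked relative of decorin, stood at 1164 and 1336 CPM in CD106+ libraries, against 160 and 260 CPM in CD106- libraries. The log2 fold change was 2.52 (SE 0.34, edgeR adjusted p = 9.7e-06). As for Ogn, the higher CD106- library stayed well under the lower CD106+ library.

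Dcn and Lum are neighbours on chromosome 10 (97479500 to 97518163 and 97565501 to 97572703, GRCm38.p6), and both were higher in CD106+ cells. Dcn stood at 74.8 and 115 CPM in CD106+ libraries, against 20.4 and 17.0 CPM in CD106- libraries (log2 fold change 2.29, SE 0.32, edgeR adjusted p = 1.1e-05). Lum, which regulates collagen fibrils in the cornea and other tissues, stood at 30.1 and 23.3 CPM in CD106+ libraries, against 4.04 and 3.50 CPM in CD106- libraries (log2 fold change 2.79, SE 0.49, edgeR adjusted p = 2.5e-04). Neither pair of groups overlapped. Kera and Epyc, which follow Lum on the chromosome and belong to the same family, averaged 0 CPM and 0.10 CPM in CD106+ libraries and 0 CPM in CD106- libraries.

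Fmod was the small leucine-rich proteoglycan with the opposite sign. It stood at 150 and 226 CPM in CD106+ libraries, against 331 and 290 CPM in CD106- libraries. The groups did not overlap, as for 22.1% of genes with lower values in CD106+ cells, but the difference did not pass (log2 fold change -0.78, SE 0.28, edgeR adjusted p = 0.084). It did pass with DESeq2 (adjusted p = 0.048) and without the second CD106+ library (log2 fold change -1.01, adjusted p = 9.6e-04 by edgeR).

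Among the synthases, Has2, the main hyaluronan synthase of the embryo, stood at 17.2 and 28.3 CPM in CD106+ libraries, against 5.39 and 9.32 CPM in CD106- libraries. Its log2 fold change was 1.56 (SE 0.47, edgeR adjusted p = 0.034). The call was lost without the second CD106+ library (adjusted p = 0.11), without the first (0.49) or second (0.082) CD106- library, and with scaling by column totals (0.053). Has1 stood at 2.61 and 1.12 CPM in CD106+ libraries, against 0.77 and 1.83 CPM in CD106- libraries, and Has3 at 5.61 and 5.47 CPM against 7.31 and 9.99 CPM. Neither passed (edgeR adjusted p = 0.88 and 0.61), and their 95% intervals on the log2 scale, -1.51 to 2.38 for Has1 and -1.89 to 0.51 for Has3, leave room for differences in either direction.

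Cd44 stood at 159 and 241 CPM in CD106+ libraries, against 62.5 and 87.9 CPM in CD106- libraries. The log2 fold change was 1.35 (SE 0.29, edgeR adjusted p = 0.0022), and the adjusted p was 0.24 without the first CD106- library. Of the 7 genes called, Dcn, Lum, Bgn and Ogn kept their call without each library in turn.

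Summed markers of the chondrocyte and heart muscle lists also differed between these libraries. Chondrocyte markers summed to 111 and 115 CPM in CD106+ libraries and to 248 and 268 CPM in CD106- libraries. Of 6 tested, 2 were lower in CD106+ cells, Col9a3 and Sox9. Sox9 alone stood at 64.6 and 64.2 CPM in CD106+ libraries, against 152 and 168 CPM in CD106- libraries. Col2a1 stood at 15.0 and 4.91 CPM in CD106+ libraries, against 26.9 and 16.0 CPM in CD106- libraries. Matn1 and Comp were at 0 in both fractions, so the sum should not be read as cartilage RNA alone. With the chondrocyte markers as a covariate only Ogn of the 10 genes was called (log2 fold change 3.65), in a fit that called 80 genes in all. Both CD106+ libraries had a lower marker sum than either CD106- library, so in this fit markers and fraction cannot be told apart. The log2 fold changes in that fit were 3.73 for Lum, 1.73 for Dcn, 1.67 for Bgn and 1.13 for Vcan, while those of Cd44 and Has2 were 0.097 and -0.12. Heart muscle markers summed to 977 and 74.8 CPM in CD106+ libraries and to 96.3 and 23.5 CPM in CD106- libraries, and with these as a covariate Vcan lost its call (log2 fold change 1.71, adjusted p = 0.079). Endothelial markers summed to 80.6 and 106 CPM in CD106+ libraries and to 11.7 and 14.4 CPM in CD106- libraries, and 4 of 6 tested were higher in CD106+ cells. The 5 plasma protein genes listed, among them Afp and Alb, were all higher there, with summed levels of 399 and 921 CPM in CD106+ libraries and 33.7 and 100.04 CPM in CD106- libraries. The part of these RNAs in the 10 genes was not tested.

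**Figure D1:**
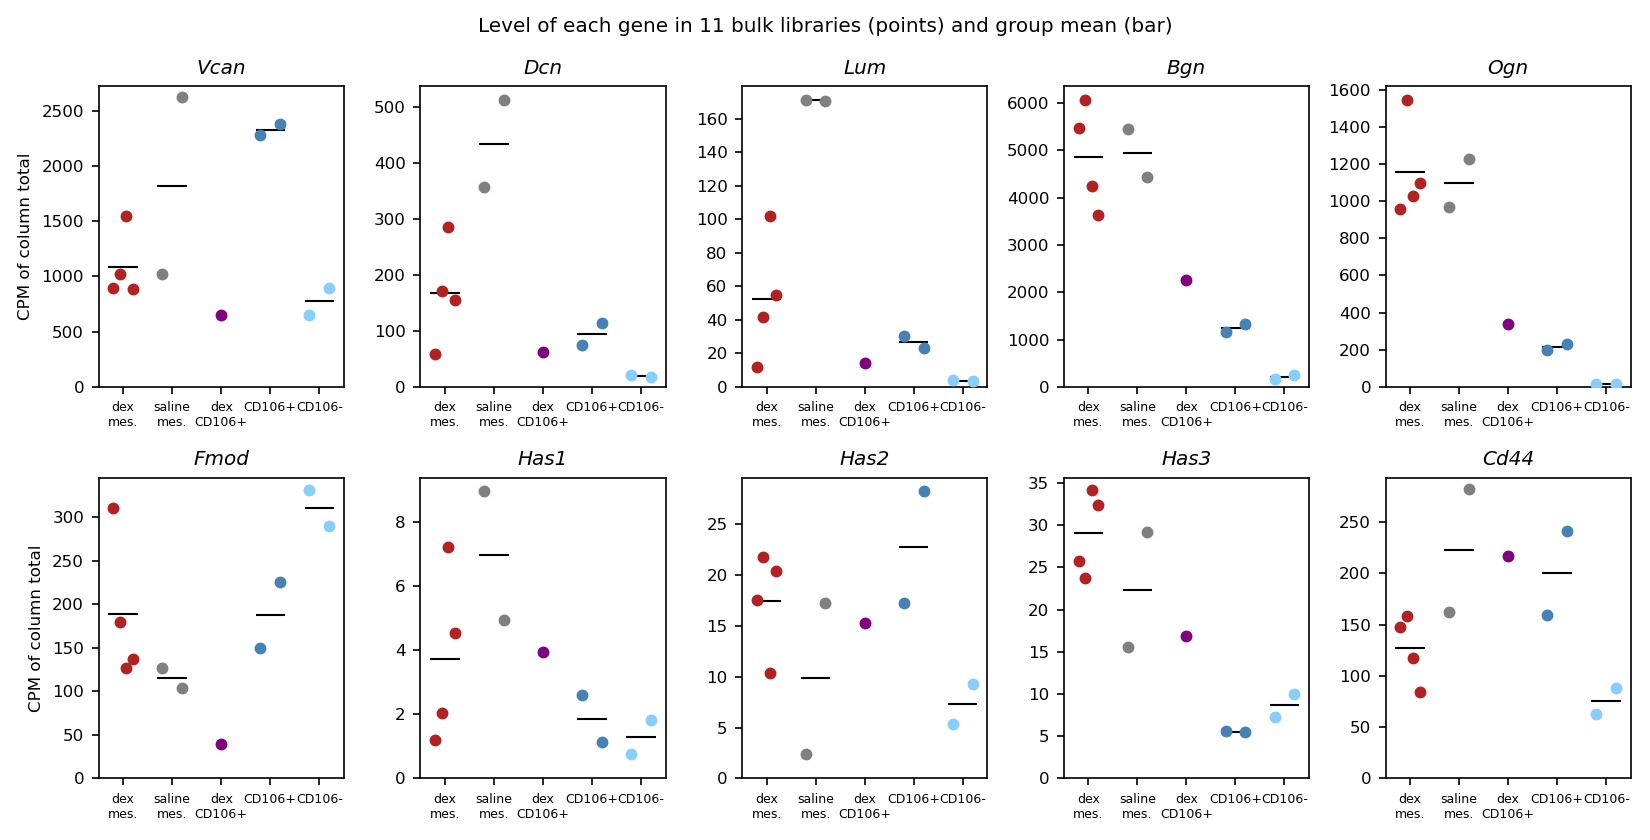
Level of each of the 10 genes in CPM (linear axes from 0) in every bulk library, with dexamethasone mesenchyme (dex mes., 4 pools), saline mesenchyme (2 pools), the dexamethasone CD106+ library, CD106+ (2 libraries) and CD106- (2 libraries); bars are group means. Vcan stood at 2277 and 2375 CPM in CD106+ libraries and at 646 CPM in the dexamethasone CD106+ library, while Bgn and Ogn were highest in the 6 mesenchyme pools.

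At 2 hours after injection, none of the 10 genes passed the test between dexamethasone and saline mesenchyme. In this comparison edgeR called 2.69% of 11356 genes, 1.95% higher and 0.740% lower. At an unadjusted p under 0.05 there were 5 of the 10 genes (Vcan, Dcn, Lum and Cd44 with lower values and Fmod with higher values), against 13.8% of all genes. DESeq2 called none of the 10 and limma-voom called Dcn and Lum. The median log2 fold change was -0.32 over the 10 genes and -0.012 over all genes tested. The known glucocorticoid target Fkbp5 stood at 176 to 260 CPM in dexamethasone pools, against 28.7 and 40.7 CPM in saline pools.

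Dcn and Lum had the most negative fold changes of the 10. Dcn stood at 58.2, 171, 285 and 156 CPM in dexamethasone pools, against 356 and 512 CPM in saline pools (log2 fold change -1.31, SE 0.48, edgeR adjusted p = 0.25). Lum stood at 11.8, 41.5, 102 and 54.7 CPM in dexamethasone pools, against 171 and 171 CPM in saline pools (log2 fold change -1.66, SE 0.67, edgeR adjusted p = 0.34). All 4 dexamethasone pools lay below both saline pools for both genes, as they did for 13.0% of genes tested, but the dexamethasone pools spread widely, with the first pool lowest and the third highest in each case. Without the third dexamethasone pool both passed (edgeR adjusted p = 0.021 for Dcn and 0.026 for Lum).

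Cartilage RNA was lower on average in the same dexamethasone pools, though none of 6 tested chondrocyte markers passed. Col2a1, the main collagen of cartilage, stood at 6.15, 26.9, 247 and 40.4 CPM in dexamethasone pools, against 1090 and 403 CPM in saline pools. The 9 chondrocyte markers in the table summed to 8.29, 38.7, 318 and 59.2 CPM in dexamethasone pools, against 1359 and 523 CPM in saline pools, and Comp was at 0 in all 4 dexamethasone pools. Among dexamethasone pools, the one with the least chondrocyte RNA was also lowest for Dcn and Lum, and the one with the most was highest. The saline pools did not follow that order for Dcn: 356 CPM with 1359 CPM of markers, against 512 CPM with 523 CPM. Lum stood at 171 CPM in both saline pools. With the mean of these markers as a covariate, the log2 fold changes were 0.12 for Dcn and 0.45 for Lum (edgeR adjusted p = 0.998 for both). That fit called 25 genes in all. Every dexamethasone pool had a lower marker sum than either saline pool, so in this fit markers and treatment cannot be told apart.

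**Figure D2:**
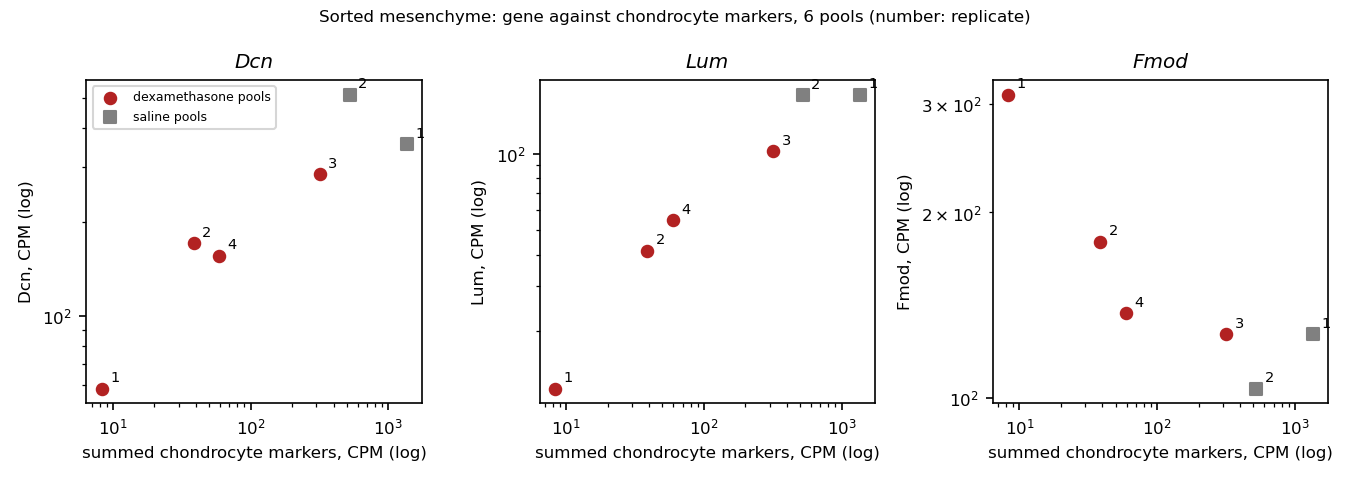
CPM of Dcn, Lum and Fmod (log axes) against the summed CPM of chondrocyte markers (log axis) in the 4 dexamethasone pools (circles) and 2 saline pools (squares) of sorted mesenchyme, numbered by replicate. Dexamethasone pool 1, with 8.29 CPM of chondrocyte markers, had the least Dcn (58.2 CPM) and Lum (11.8 CPM) and the most Fmod (310 CPM).

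Vcan stood at 894, 1017, 1545 and 882 CPM in dexamethasone pools, against 1019 and 2623 CPM in saline pools. The groups overlapped, and the saline pools differed from each other more than the dexamethasone pools did (log2 fold change -0.66, SE 0.31, edgeR adjusted p = 0.35). The value turned on the second saline pool: without it the log2 fold change was 0.11 (adjusted p = 0.92), and without the first saline pool it was -1.15 (adjusted p = 0.0465).

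Cd44 stood at 147, 159, 118 and 84.5 CPM in dexamethasone pools, against 162 and 283 CPM in saline pools. The highest dexamethasone pool lay just under the lower saline pool, and the difference did not pass (log2 fold change -0.73, SE 0.27, edgeR adjusted p = 0.19). Fmod stood at 310, 179, 127.0 and 137 CPM in dexamethasone pools, against 126.9 and 104 CPM in saline pools. Dexamethasone pools lay above saline pools by the narrowest of margins, an arrangement seen in 9.99% of genes, and the log2 fold change of 0.77 (SE 0.33) did not pass (edgeR adjusted p = 0.31).

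Bgn and Ogn were at nearly the same mean level in both groups. Bgn averaged 4855 ± 1116 CPM in dexamethasone pools and 4948 ± 725 CPM in saline pools (SD, n = 4 and 2; 95% interval of the log2 fold change -0.49 to 0.54). Ogn averaged 1157 ± 265 CPM in dexamethasone pools and 1097 ± 183 CPM in saline pools (95% interval -0.33 to 0.62). Neither interval shows that the levels were equal. Sex-linked RNA differed between the groups. Xist stood at 374, 11111, 12.6 and 6.59 CPM in dexamethasone pools, against 33133 and 20880 CPM in saline pools. The Y-linked gene Ddx3y stood at 106, 74.4, 131 and 174 CPM in dexamethasone pools, against 1.20 and 0 CPM in saline pools. Of 5 sex genes tested, 4 were called higher. Sex and treatment therefore cannot be told apart in this comparison, for the X-linked gene Bgn or for the rest of the 10 genes. The part of sex was not tested beyond a fit with Xist as a covariate, in which none of the 10 genes was called.

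The synthases were low and their groups overlapped. Has1 ran from 1.18 to 7.21 CPM in dexamethasone pools, against 4.94 and 8.98 CPM in saline pools. Has2 stood at 17.52, 21.8, 10.4 and 20.4 CPM in dexamethasone pools, against 2.39 and 17.3 CPM in saline pools (log2 fold change 0.88, 95% interval -0.38 to 2.15). Without the first saline pool it was 0.15 (edgeR adjusted p = 0.96) and without the second 2.87 (adjusted p = 0.099). Has3 ran from 23.8 to 34.2 CPM in dexamethasone pools, against 15.6 and 29.2 CPM in saline pools. The Has2 interval holds both 0 and the 1.56 measured between CD106 fractions.

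**Figure D3:**
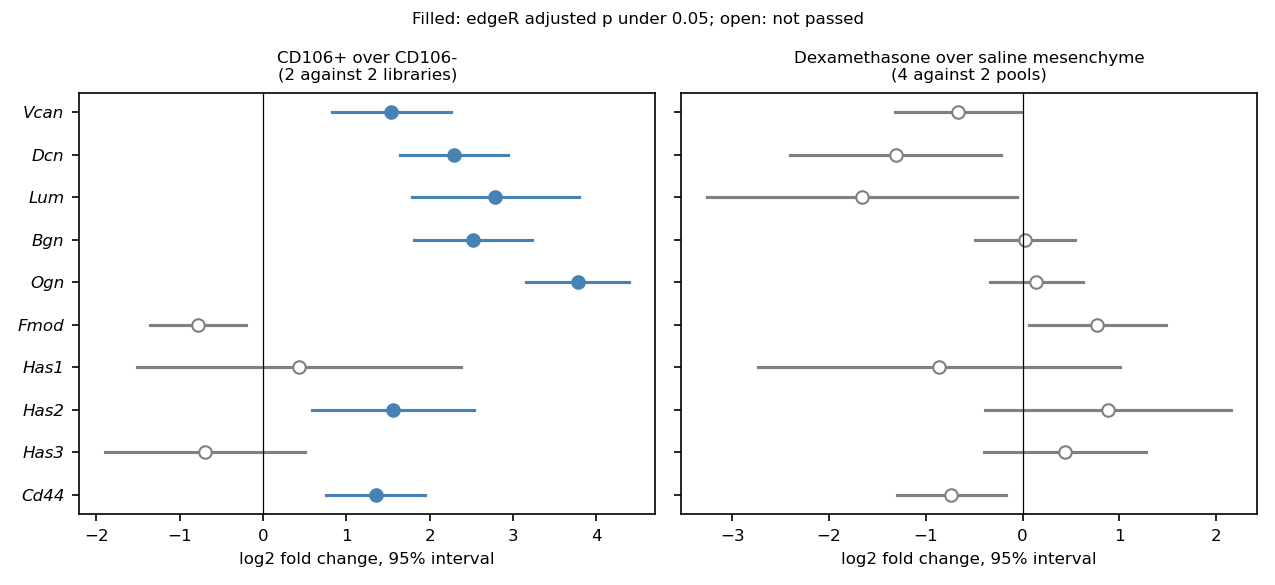
Log2 fold change and 95% interval of each gene by edgeR for CD106+ over CD106- (left, 2 against 2 libraries) and dexamethasone over saline mesenchyme (right, 4 against 2 pools); filled points passed an adjusted p under 0.05 and open points did not. The left panel has 7 filled points, from 1.35 for Cd44 to 3.77 for Ogn, and the right panel has none.

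The dexamethasone CD106+ library is a single library, so its values have no replicate check and are given mainly as ratios. Vcan stood at 646 CPM in the dexamethasone CD106+ library, against 2277 and 2375 CPM in CD106+ libraries, a log2 ratio of -1.85. Fmod stood at 39.6 CPM in the dexamethasone CD106+ library, against 150 and 226 CPM in CD106+ libraries, a log2 ratio of -2.22. Has3 stood at 16.9 CPM in the dexamethasone CD106+ library, against 5.61 and 5.47 CPM in CD106+ libraries, a log2 ratio of 1.45. These 3 lay beyond 2-fold and outside both CD106+ libraries, as did 31.6% of 13605 genes, so 3 of 10 is close to the share over all genes. An edgeR fit of the 5 CD106 libraries, which assumes that the lone treated library varies like the others, called 13.4% of 13708 genes. It called Vcan (log2 fold change -1.70, adjusted p = 0.010) and Fmod (-2.09, adjusted p = 5.7e-04) among the 10, and not Has3 (1.75, adjusted p = 0.071).

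Of the other 7 genes, Dcn, Lum and Has2 lay below both CD106+ libraries and Bgn, Ogn and Has1 above both, by less than 2-fold. Over all genes 45.2% lay below both and 32.4% above both. Bgn stood at 2255 CPM in the dexamethasone CD106+ library, against 1164 and 1336 CPM in CD106+ libraries. Ogn stood at 337 CPM in the dexamethasone CD106+ library, against 198 and 232 CPM in CD106+ libraries. Cd44 stood at 217 CPM, between 159 and 241 CPM in CD106+ libraries.

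The cell makeup of that library differed too. Endothelial markers summed to 2200 CPM in the dexamethasone CD106+ library, against 80.6 and 106 CPM in CD106+ libraries, and epithelial markers to 1695 CPM against 2336 and 4018 CPM. Lyve1, a hyaluronan receptor of lymphatic and some other endothelium, stood at 648 CPM in the dexamethasone CD106+ library, against 18.8 and 7.71 CPM in CD106+ libraries. The scavenger receptor Stab2, which takes up hyaluronan, stood at 39.8 CPM there, against 1.00 and 1.82 CPM in CD106+ libraries. Hapln1, a link protein that joins versican to hyaluronan, stood at 131 CPM in the dexamethasone CD106+ library, against 12.6 and 9.39 CPM in CD106+ libraries. Tnfaip6 stood at 61.2 CPM there, against 3.41 and 6.45 CPM in CD106+ libraries. Hmmr, a hyaluronan-binding protein of dividing cells, stood at 62.5 CPM there, against 241 and 192 CPM in CD106+ libraries. Of the 13 hyaluronan binding proteins and receptors, 6 lay higher and 5 lower beyond 2-fold and outside both CD106+ libraries, where 31.6% of all genes did so in either direction. Of the 7 large proteoglycans and link proteins, 2 lay higher and 0 lower by the same measure. The part of other cell types in the Vcan and Fmod values was not tested, and treatment, table and library cannot be told apart.

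Single cells were used to count which of these genes were found in the same cell. The groups were each 1 sample, because no animals are named, so they were described without a test. Summed CPM of 6 treatment check genes had a median of 246 in dexamethasone cells (60.8 to 3733) and 1173 in saline cells (40.6 to 2661). In the mesenchyme pools that sum ran from 2790 to 3685 CPM with dexamethasone and from 859 to 962 CPM with saline. By median the cells thus lacked the higher sum of the dexamethasone pools, and their response was not tested. The Vcan and Dcn counts below carry that limit. Epcam and Col2a1 were at 0 in all 26 cells, but other markers of their lists were counted. Summed epithelial markers had a median of 245 CPM and a maximum of 11687 CPM in dexamethasone cells. In saline cells these values were 98.7 and 704 CPM. Chondrocyte markers summed to at most 0.56 CPM in dexamethasone cells and 499 CPM in saline cells. Pecam1 stood above 100 CPM in 1 dexamethasone cell and 5 saline cells, and erythroid markers reached 185048 CPM in 1 dexamethasone cell and at most 0.86 CPM in saline cells. Bgn was counted in 26 of 26 cells, at 74.2 to 7813 CPM, and Ogn in 12 of 15 dexamethasone cells and 10 of 11 saline cells. Their medians over cells were 1785 and 308 CPM in dexamethasone cells and 996 and 189 CPM in saline cells.

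Vcan was counted in 12 of 15 dexamethasone cells (80%, exact 95% interval 51.9 to 95.7%) and in 5 of 11 saline cells (45.5%, 16.7 to 76.6%). Intervals cover counting error only. At 5 counts or more, the share was 40% of dexamethasone cells and 45.5% of saline cells, so 6 of the 12 dexamethasone cells and none of the 5 saline cells held fewer. Only 4 cells reached 100 CPM, namely dexamethasone cells 2, 6 and 13 at 409, 1993 and 1808 CPM, and saline cell 4 at 190 CPM.

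Dcn was counted in 0 of 15 dexamethasone cells (exact 95% interval 0 to 21.8%) and in 6 of 11 saline cells (54.5%, exact interval 23.4 to 83.3%). These intervals are for cells with a count, not for cells that express the gene. Saline cell 9 held 215 CPM and the other 5 held 0.86 to 12.3 CPM. Cell 9 also had Pecam1, an endothelial gene, at 1323 CPM. It held the mesenchyme markers Pdgfra, Tcf21, Col1a1 and Meox2 too, at 1022, 773, 378 and 285 CPM, and its cell type was not tested. Without the cells above 100 CPM of Pecam1 the mean of Dcn over saline cells was 2.80 CPM, against 22.2 CPM with them. Such a pattern, with no dexamethasone cell and at least 6 saline cells, was found in 0.426% of 12668 genes, while 29.9% of genes had a larger share of dexamethasone cells and 68.2% of saline cells. Median depth was 852850 counts in dexamethasone cells and 1349765 counts in saline cells. With every cell thinned to 200000 counts Dcn was found in 45.5% of saline cells. The dexamethasone cells held no Dcn count before thinning, so their share could only stay at 0%. The part of depth was not tested.

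Lum was counted in none of the 26 cells. Cd44 was counted in 6 of 15 dexamethasone cells and 7 of 11 saline cells, with its highest values at 847 CPM in dexamethasone cell 13 and 523 CPM in saline cell 1. Fmod was found in 3 cells, Has1 in 2 and Has3 in 1. Has2 was found in a single cell, saline cell 5, at 461 CPM, which also held Bgn at 6207 CPM. Of the 17 cells with Vcan, 15 also had Ogn and 7 also had Cd44. Over all 26 cells Ogn was counted in 22 and Cd44 in 13, and whether the genes go together was not tested.

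**Figure D4:**
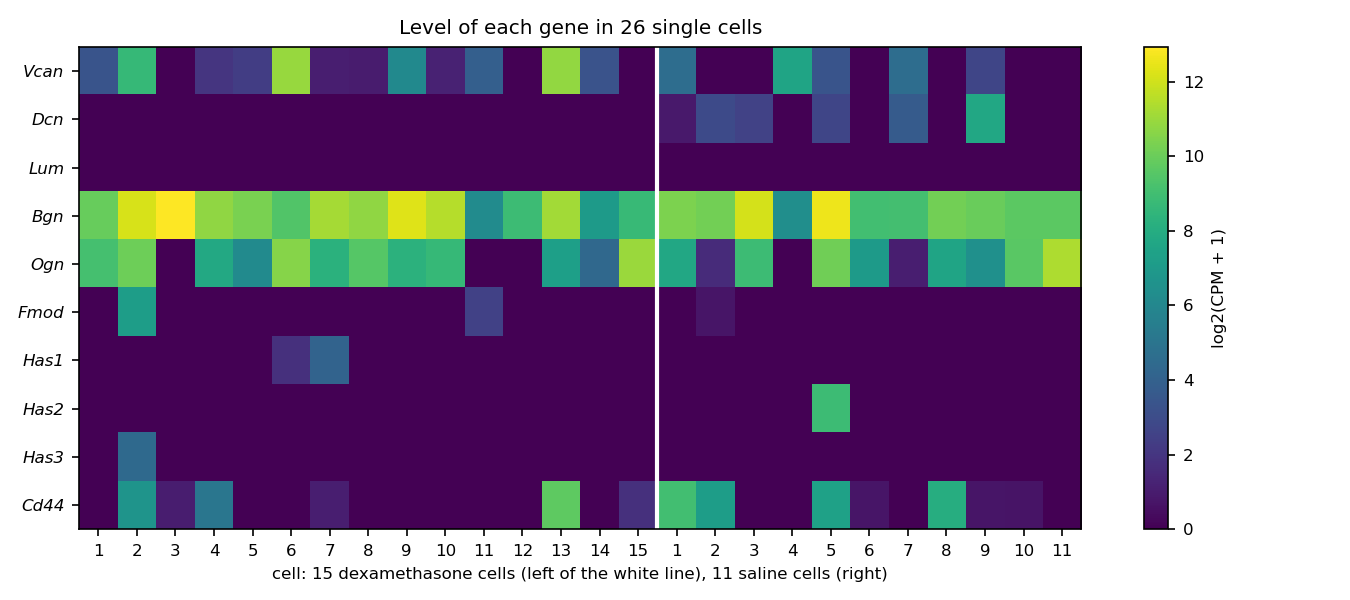
Log2(CPM + 1) of the 10 genes in 15 dexamethasone cells (left of the white line) and 11 saline cells (right), one column per cell. Bgn was counted in 26 of 26 cells and Lum in none, and Dcn appears in 6 saline cells.

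Other genes of these pathways were followed through lists of proteoglycan and hyaluronan genes. Among 8 versican-cleaving ADAMTS proteases and co-factors, 2 of 7 tested were higher in dexamethasone mesenchyme, none lower. Adamts1, a secreted protease that cuts versican, stood at 1924, 2117, 1168 and 1485 CPM in dexamethasone pools, against 717 and 884 CPM in saline pools (log2 fold change 1.13, SE 0.25, edgeR adjusted p = 0.019). Adamts15 stood at 360, 202, 196 and 204 CPM in dexamethasone pools, against 62.2 and 57.6 CPM in saline pools (log2 fold change 2.07, SE 0.30, edgeR adjusted p = 6.2e-04). No dexamethasone pool overlapped a saline pool for either protease, as for 9.99% of genes with higher values, and 1.95% of all genes tested were called higher. In the dexamethasone CD106+ library Adamts1 stood at 2803 CPM, against 750 and 1025 CPM in CD106+ libraries, and Adamts15 at 14.5 CPM, against 10.4 and 11.9 CPM.

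Of the chondroitin and dermatan sulphate chain enzymes, 1 of 18 tested was higher in dexamethasone mesenchyme and none lower. Over all genes tested 1.95% were called higher and 0.740% lower. The enzyme called, Chst15, which adds a sulphate to chondroitin sulphate chains, stood at 474, 462, 307 and 399 CPM in dexamethasone pools, against 108 and 109 CPM in saline pools (log2 fold change 1.98, SE 0.25, edgeR adjusted p = 1.8e-04). In the dexamethasone CD106+ library Chst15 stood at 132 CPM, against 43.5 and 55.2 CPM in CD106+ libraries. Among other proteoglycan core proteins, 2 of 17 were higher and 1 lower. Sdc4, a syndecan, averaged 142 ± 34.1 CPM in dexamethasone pools and 38.6 ± 29.2 CPM in saline pools (log2 fold change 1.95). Tgfbr3, or betaglycan, averaged 1047 ± 268 CPM in dexamethasone pools and 429 ± 2.96 CPM in saline pools (log2 fold change 1.35). Gpc6, a glypican, averaged 223 ± 89.7 CPM in dexamethasone pools and 674 ± 117 CPM in saline pools (log2 fold change -1.55; SD, n = 4 and 2 for these 3 genes). In the dexamethasone CD106+ library Sdc4 stood at 249 CPM, between 241 and 417 CPM in CD106+ libraries. Tgfbr3 stood at 245 CPM there, against 203 and 214 CPM in CD106+ libraries, and Gpc6 at 121 CPM, against 252 and 245 CPM. Among hyaluronan breakdown genes, hyaluronan binding proteins, sugar nucleotide genes, other small leucine-rich proteoglycans and large proteoglycans with link proteins, none of 8, 5, 11, 6 and 2 tested passed; at 8.10 against 54.2 CPM on average in dexamethasone and saline pools, Acan, the large proteoglycan of cartilage, did not pass.

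In CD106+ cells, 4 of 8 ADAMTS genes and co-factors were higher than in CD106- cells: Adamts1 (log2 fold change 1.60), Adamts4 (3.41), Adamts20 (4.63) and Fbln1 (1.26). Over all 12364 genes tested 6.67% were called higher and 3.35% lower, which is the share to set beside each list here. Chst15, Dse and Chsy3 were higher (log2 fold change 3.01, 2.48 and 2.53) and Chst11 was lower (-1.74) among 20 chain enzymes. Cemip, which takes part in hyaluronan breakdown, was higher (5.28) among 8 breakdown genes, and Tnfaip6, a hyaluronan-binding protein also called TSG-6, was higher (5.43) among 9 binding proteins. Cemip stood at 14.6 and 46.0 CPM in CD106+ libraries, against 1.15 and 0.33 CPM in CD106- libraries. Tnfaip6 stood at 3.41 and 6.45 CPM in CD106+ libraries, against 0.19 and 0 CPM in CD106- libraries. In the same order Adamts20 stood at 7.02 and 7.71 against 0.19 and 0.33 CPM, and Adamts4 at 3.41 and 4.77 against 0 and 0.67 CPM. These CD106- values are near 0, so the size of these fold changes is uncertain. Aspn, a small leucine-rich proteoglycan near Ogn on chromosome 13, was higher (1.85) among 6 tested. Ugdh and Slc35b4 were higher (1.01 and 1.10) among 11 sugar nucleotide genes, and Sdc2 was higher (1.60) and Sdc4 lower (-1.02) among 15 core proteins. Neither of 2 large proteoglycan and link protein genes passed.

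**Figure D5:**
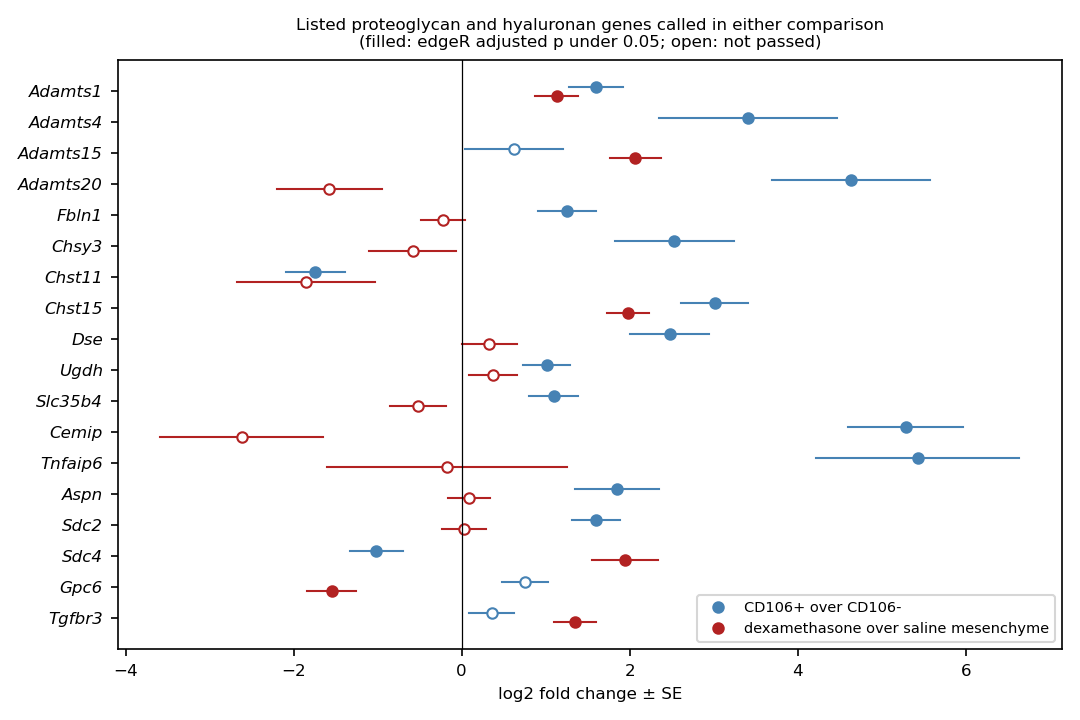
Log2 fold change ± SE of the listed proteoglycan and hyaluronan genes called in either comparison, for CD106+ over CD106- (blue) and dexamethasone over saline mesenchyme (red); filled points passed an edgeR adjusted p under 0.05, and a missing point was not tested. Adamts1 and Chst15 are filled on the higher side in both comparisons, and Sdc4 is higher in dexamethasone mesenchyme (1.95) and lower in CD106+ cells (-1.02).

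Across the 5 bulk groups the genes had different orders of level, described without a test because the tables were made from separate libraries. Bgn and Ogn had their highest means in the 2 mesenchyme groups, whose ranges overlapped, then in the dexamethasone CD106+ library, CD106+ and CD106- groups, each apart from the next. Dcn and Lum were highest in saline mesenchyme, then in dexamethasone mesenchyme, and lowest in CD106- cells at 18.7 and 3.77 CPM. Vcan had its highest mean in CD106+ cells, at 2326 CPM, and neighbouring groups overlapped down to CD106- cells. Fmod was highest in CD106- cells, at 310 CPM, overlapping dexamethasone mesenchyme. Cd44 averaged 222 CPM in saline mesenchyme, 217 CPM in the dexamethasone CD106+ library and 200.3 CPM in CD106+ cells, whose ranges overlapped in turn, and was lowest in CD106- cells at 75.2 CPM. Has2 was highest in CD106+ cells at 22.8 CPM, and every neighbouring pair of groups overlapped. Has3 was highest in dexamethasone mesenchyme at 29.1 CPM and lowest in CD106+ cells at 5.54 CPM, and Has1 was highest in saline mesenchyme at 6.96 CPM. Over the 11 libraries, which share tables and cell makeup, Bgn and Ogn had a Pearson r of 0.99 on the log2(CPM + 1) scale, and Dcn and Lum of 0.98.

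The 3 genes most like each by that measure were found among 8783 with a mean of 10 CPM or more. For Vcan they were Trps1 (r = 0.92), Capn6 (0.91) and Pja1 (0.91). For Dcn they were Lum (0.98), Col12a1 (0.96) and Prrx1 (0.96), and for Lum they were Dcn (0.98), Palm2 (0.94) and Mtap7d3 (0.94). For Bgn they were Syne1, Fmo1 and Lclat1, and for Ogn Plxdc2, 1700025G04Rik and Tmem45a, all at 0.99. Fmod was most like Lamc1 (0.94), Smad9 (0.89) and Slc4a4 (0.88). Has2 was most like D6Wsu163e (0.92), Pfdn5 (0.91) and Tmem50a (0.90), and Has3 most like Cyp1b1 (0.94), Fgf12 (0.93) and Atrnl1 (0.93). Cd44 was most like Hoxb5 (0.96), Adam19 (0.94) and Mtss1l (0.93), and Has1 was below the minimum. These values describe 11 libraries of 5 groups.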

How the data were processed

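The authors deposited expected counts per gene symbol in 4 tables, as the values show, since some are not whole. Per the submitters' processing notes the build was mm10 and Trim Galore, Bowtie2, TopHat2, Partek, MACS2 and HOMER were named, with no version or role. The counting rule is not stated, nor is strandedness. Fractional counts occurred in Vcan, Dcn and Cd44 in 7, 6 and 8 of 11 bulk libraries. By position, Has2 overlaps its antisense gene Has2os, Ogn overlaps Cenpp, and Has1 overlaps Spaca6 and Gm36907. Vcan overlaps Gm16318 and Gm4117, and Cd44 overlaps Gm23731. The counts of all these genes are uncertain to that extent. The labels' protocols describe CD106 selection for the accessibility samples (4, not analysed here) and not for RNA. For the dexamethasone CD106+ table, whose column name matches no label, the group came from the only sample description naming that table.

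Expected counts were rounded, filtered by filterByExpr, scaled by TMM and tested with edgeR 4.0.16 (robust quasi-likelihood, Benjamini-Hochberg over all genes, threshold 0.05; R 4.3.3), with only the compared groups in each fit. DESeq2 1.42.0, limma 3.58.1 (voom), other scalings and filters, covariates, the replicate block and each library left out were alternatives. The test was also run on simulated counts with the same spread set for every gene. That run does not show how the test behaves at the spread of these libraries. Levels are CPM of column totals; ratios without a test use log2(CPM + 1). No doublet caller was run on 26 cells. Gene positions and promoters are from RefSeq on GRCm38.p6, with 23065 symbols matched. The genes named are the 10 members, every listed pathway gene past the threshold, the closest genes by Pearson r and check genes; Lyve1, Stab2, Hmmr, Hapln1, Acan, Kera, Epyc, Col9a3, Sox9, Afp and Alb were chosen after their values were seen. The members and lists were chosen with earlier results of these data known. No replicate pair agreed within sampling noise (chi-square per degree of freedom 9.15 to 37.9). Plots used matplotlib 3.10.9.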

Additional observations from a re-analysis of the deposited data

Results flagged for a closer look

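Fmod had values on opposite sides of its untreated or saline libraries in 2 comparisons. Its log2 ratio was -2.22 in the dexamethasone CD106+ library over CD106+ libraries, with the treated library below both, while all 4 dexamethasone mesenchyme pools lay above both saline pools, a difference that did not pass (log2 fold change 0.77, edgeR adjusted p = 0.31) and was -0.33 with chondrocyte markers as a covariate. The difference between them was not tested. The margin in mesenchyme was 127.0 against 126.9 CPM, the CD106+ side rests on 1 library, treatment, table and library cannot be told apart there, and the hours after injection are given for the mesenchyme pools alone. Only the 4 dexamethasone mesenchyme pools were numerous enough to look for a library far from the rest, and none was found for any of the 10 genes.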

How the results depend on the processing

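Dexamethasone against saline mesenchyme called 306 genes, and 598 with no filter on low counts, 512 with DESeq2, 186 with Xist and 25 with chondrocyte markers as a covariate; leaving out each pool gave 179 to 335. None of the 10 genes was called in the main test, 2 (Dcn and Lum) with no filter and with limma-voom, and 0 to 2 without each pool. CD106+ against CD106- called 1239 genes and 7 of the 10, but 80 genes and 1 of the 10 with chondrocyte markers as a covariate, and 546 to 2756 genes and 4 to 7 of the 10 without each library; in these the share of calls that were higher ran from 52.0 to 88.5%. Deviations from group means were nearly uncorrelated between samples of the same replicate number (-0.052 and 0.055 in mesenchyme and 0.005 in CD106 libraries). With so few libraries this cannot show whether the samples were paired. With the replicate block, 154 genes and 2 of the 10 (Dcn and Lum) were called in mesenchyme. Between CD106 fractions that block gave 1276 genes and 7 of the 10. Signs turned, none of them on a called value except Has2 with chondrocyte markers, for Bgn at -0.032 with column totals, for Dcn 0.12, Lum 0.45, Bgn -0.29, Fmod -0.33, Has1 1.36 and Has2 -0.25 with chondrocyte markers, and without single pools for Bgn (range -0.15 to 0.26, also -0.036 and -0.079), Ogn (-0.0052 to 0.28) and Vcan (-1.15 to 0.11). Between CD106 fractions they turned for Has2 (-0.12, chondrocyte markers) and Has1 (-0.051, heart markers; -0.34 to 1.25 without single libraries, also -0.064). The cause was not tested. Among values of single genes, 392 kept direction and side of the threshold or stayed within the spread. With 2 libraries in 3 of the 4 groups tested, intervals were wide, and a gene that did not pass is not shown to be equal.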
